A study of Homo sapiens with 6 samples.

Results

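The 43 genes described here encode enzymes that add methyl groups to histone lysines, enzymes that remove them, and non-catalytic subunits of the complexes that carry these enzymes. They were chosen by gene symbol from a list of lysine methylation genes. The rule uses no measured value, but the list was made with earlier results of these data known. Each of the 43 symbols matched 1 of the 23698 rows of the count tables, and all 43 were among the 13668 genes that had enough counts to be tested. They fell into 7 classes: 2 LSD demethylases, 13 JmjC demethylases, 5 PRC2 genes, 6 genes of the SET1/MLL complexes, 6 H3K9 methyltransferases, 6 H3K36 and H3K79 methyltransferases, and 5 other lysine methyltransferases. Older symbols are given as in the count tables, so that SETD8 is now KMT5A, WHSC1 is NSD2 and WHSC1L1 is NSD3.

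Poly(A) RNA was sequenced from MV4-11, an established human acute myeloid leukaemia line with a FLT3 internal tandem duplication and, as background, a rearranged MLL gene. The PRMT5 knockdown group held 3 libraries from cells stably transduced by lentivirus with a short hairpin RNA against PRMT5, an arginine methyltransferase. The scrambled control group held 3 libraries from the same line transduced with a scrambled hairpin vector. All cells therefore carried a lentiviral integration, and neither the hairpin sequences nor the number of transductions or clones behind each group is given in the labels. The study asked which transcripts differed between these groups.

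Library totals ran from 16408484 to 19077106 estimated counts, and values below are CPM, read counts scaled to library size with TMM factors. PRMT5 itself was at 103, 71.6 and 53.0 CPM in knockdown 1 to 3, against 133, 53.2 and 158 CPM in controls 1, 2 and 3 as labelled. The log2 difference was −0.60 (SE 0.43, edgeR adjusted p = 0.926), and −0.94 with the second control left out. That control held a knockdown-like level of PRMT5, against its label, and it stood apart across all tested genes: its log2 CPM correlated with the other 5 libraries at 0.876 to 0.923, where all pairs among those 5 had 0.952 to 0.995. It is called the library labelled scrambled control 2 throughout, and values are given with and without it. Knockdown 3 and control 3 were the closest pair of all, at 0.995. Of 8 myeloid markers, all 8 reached 10 counts, with a summed level of 1660 to 2581 CPM in the 3 knockdown libraries and 1211 to 2382 CPM in controls, here scaled to total counts. The library labelled scrambled control 2 had the lowest of these sums, 1211 CPM, and the other controls were at 2254 and 2382 CPM. LYZ, which encodes lysozyme, had 7928 to 23447 counts in the knockdown libraries, 7573 and 18921 in controls 1 and 3, and 544 in the library labelled scrambled control 2, and MPO, which encodes myeloperoxidase, had 1083 to 3492, 8859 and 1602, and 213. ITGAM went the other way, with 314 to 1403 counts in knockdown, 1312 and 541 in controls 1 and 3, and 1778 in that library. SPI1 was lowest there, at 1869 counts. FLT3, CD33, CEBPA and CSF1R lay within the range of the other 5 libraries, so the 8 markers were mixed. The 3 erythroid markers and 2 of the 3 T cell markers were at 0 in all libraries, and the summed B cell markers reached at most 1.67 CPM. Epithelial markers summed to 4.24 to 7.38 CPM in knockdown and 4.25 to 24.3 CPM in control libraries, and fibroblast markers to 0.0524 to 0.338 and 0.468 to 4.41 CPM; the library labelled scrambled control 2 held the highest sum of both lists. A single gene carried each sum there, KRT8 with 425 counts and COL1A1 with 77.2, while EPCAM and COL1A2 were at 0 in all libraries, CDH1 and DCN were at 0 in that library, and KRT19 had 1 count. The part of these marker differences in the results below was not tested.

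Methylation of a histone lysine can mark active or silent chromatin, depending on the residue. Methylation of lysine 4, 36 or 79 of histone H3 is found at active genes, whereas methylation of lysine 9 or 27 is found in silent chromatin. LSD enzymes remove methyl groups with a flavin cofactor, and JmjC enzymes do so with iron, oxygen and 2-oxoglutarate. In leukaemias with an MLL rearrangement, the fusion protein works with menin and brings DOT1L to its target genes, and DOT1L, menin and KDM1A have been studied there as drug targets.

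None of the 43 genes differed between knockdown and control after multiple-testing correction. In the edgeR quasi-likelihood fit, 0 of 43 had an adjusted p under 0.05, beside 0.0% of all tested genes, and the smallest adjusted p among them was 0.926. DESeq2 and limma-voom also called 0 of the 43. At an unadjusted p under 0.05 the edgeR, DESeq2 and limma-voom fits each had 1 of the 43, KDM4A. Of all 13668 tested genes, 242, 461 and 117 were under it in the same fits. In edgeR that was 2.33% of the 43 beside 1.77% of all tested genes, and 0.571% of all for a higher value in the knockdown. Fitted log2 differences, knockdown minus control, were below 0 for 30 of the 43 genes and above 0 for 13, with a median of −0.08. Over all tested genes 50.1% were below 0, 49.9% were above it, and the median was −0.00. Standard errors ran from 0.178 to 0.602 on the log2 scale and the median width of the 95% interval was 1.28. Small differences were thus not detectable with these libraries. Large fitted differences did not pass either: KDM3A at −1.17 had an edgeR adjusted p of 0.926. The absence of calls therefore does not exclude large differences. Because the RNA is from whole cultures, a different share of cells in some state and a different amount of RNA per cell cannot be told apart.

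**Figure D1:**
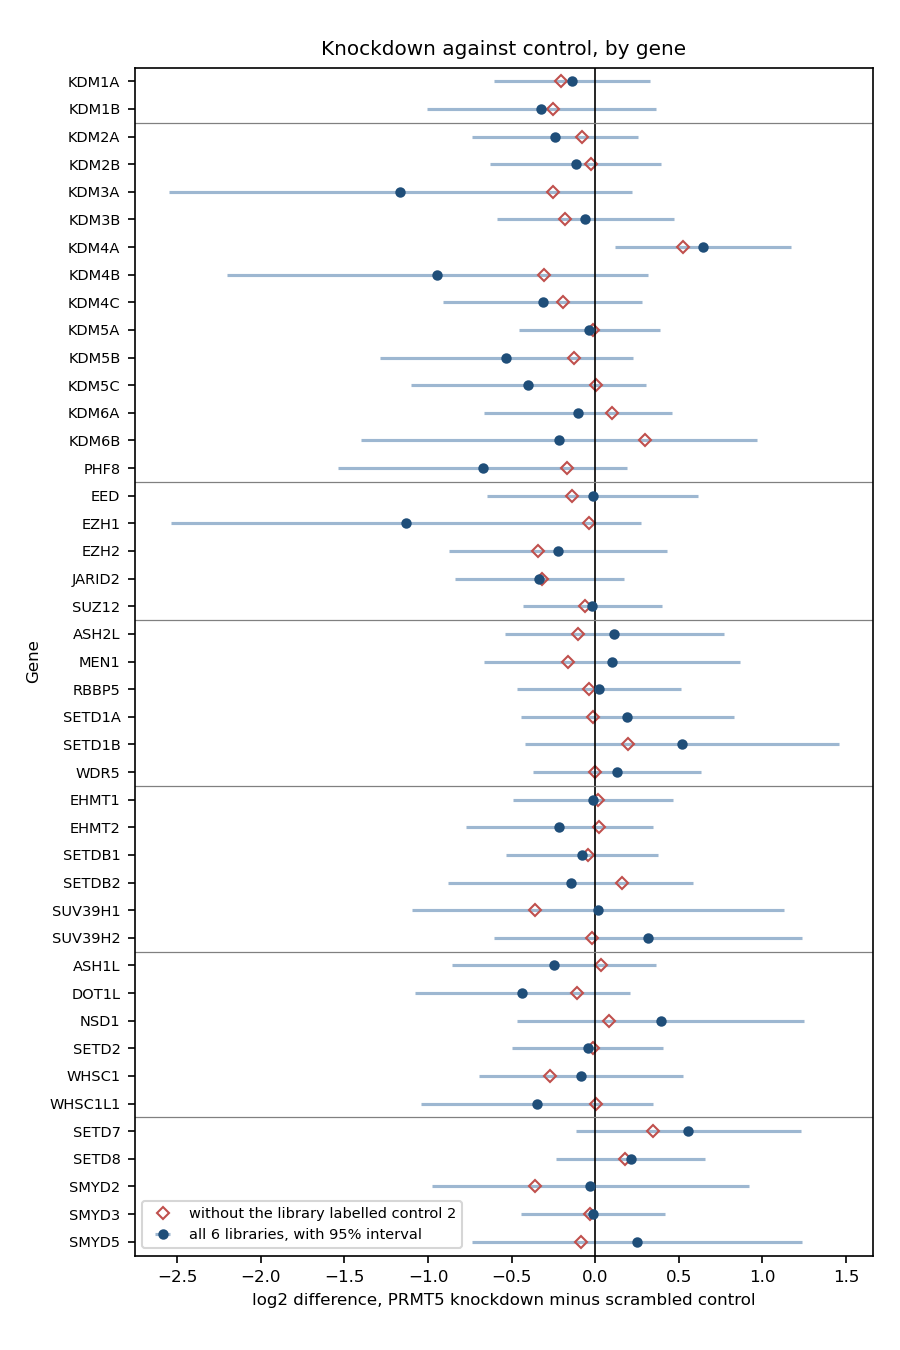
Log2 difference of PRMT5 knockdown minus scrambled control for each of the 43 genes (horizontal axis), grouped by class. Filled points with bars are the edgeR estimate and its 95% interval from all 6 libraries, and open diamonds are the estimate without the library labelled scrambled control 2. KDM4A is the gene whose interval, 0.12 to 1.17, lies wholly above 0, and most diamonds lie nearer to 0 than the filled points.

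Much of the size of these differences went with the outlying control. With all 6 libraries, 8 of the 43 genes had an absolute log2 difference above 0.5. Without the library labelled scrambled control 2, 1 did, KDM4A at 0.53, and 31 of the 43 were over 1.5 times smaller or had turned in sign, 15 of them having turned. That library was the highest of the 6 for 16 genes and the lowest for 16 others, beside 34.4% and 36.7% of all tested genes, so these genes were about as often extreme there as genes in general. The library held the highest value for 10 of 13 JmjC demethylases and the lowest for 1, and it held the lowest for 5 of 6 SET1/MLL genes and 4 of 5 other lysine methyltransferases and the highest for none of either. The other classes were split: it was highest for 1 and lowest for 2 of the 5 PRC2 genes, highest for 2 and lowest for 2 of the 6 H3K9 methyltransferases, highest for 3 and lowest for 2 of the 6 H3K36 and H3K79 methyltransferases, and neither for the 2 LSD demethylases. Among the related genes listed further below, that library was highest for 2 and lowest for 3 of 6 demethylases. It was highest for 6 and lowest for 3 of 9 methyltransferases, and highest for all 5 MLL family genes. For the 7 SET1/MLL partners it was highest for 1 and lowest for 4. None of these splits was tested.

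**Figure D2:**
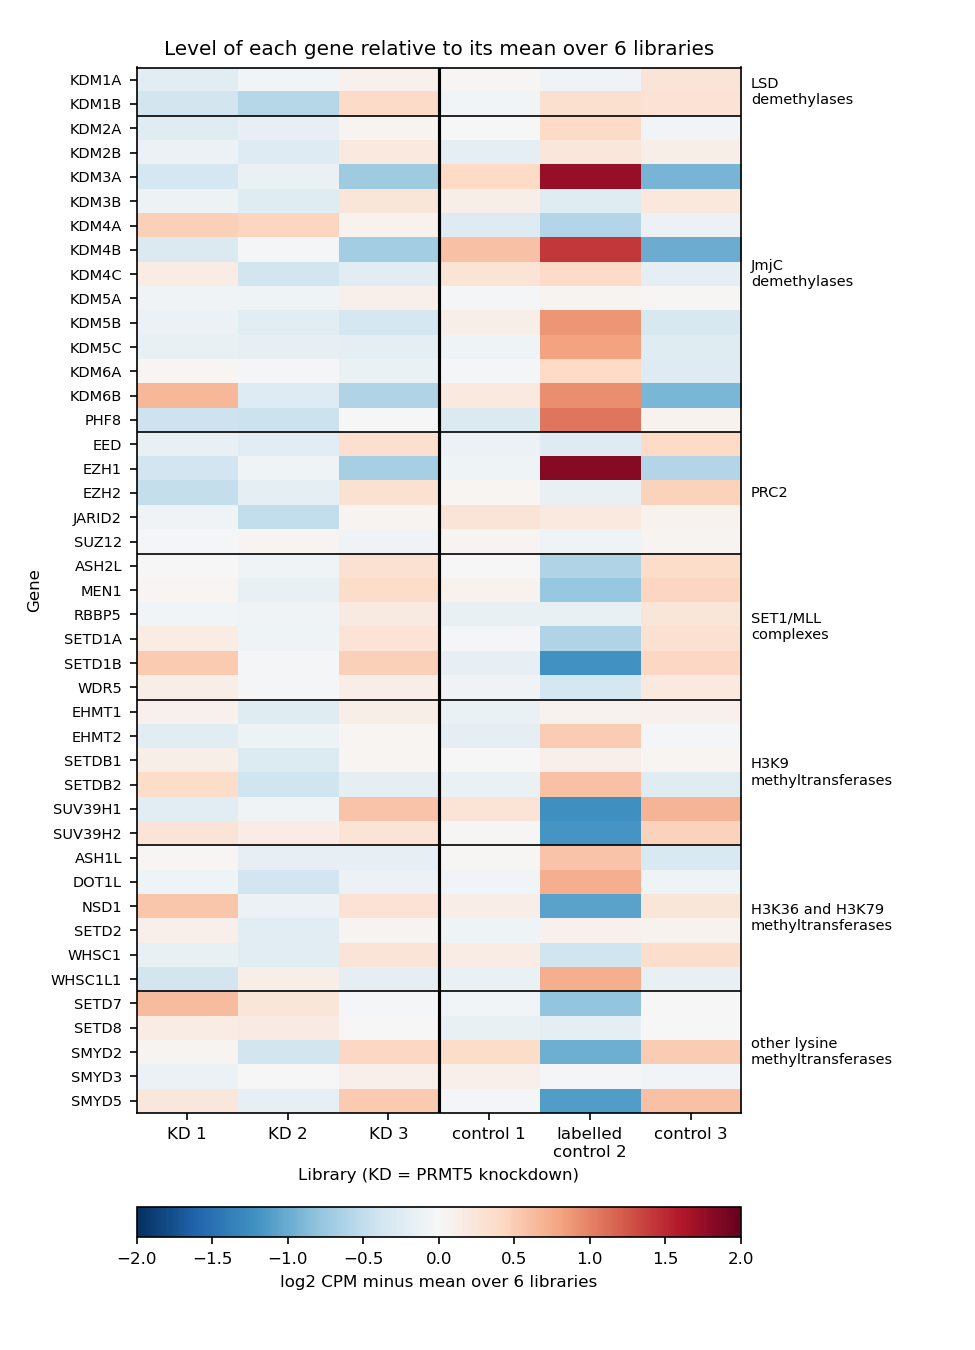
Log2 CPM of each gene minus its mean over the 6 libraries (colour), with knockdown libraries to the left of the vertical line and controls to the right. Red marks KDM3A, KDM4B and EZH1 in the library labelled scrambled control 2, where SETD1B, SUV39H1, SUV39H2, NSD1, SMYD2 and SMYD5 are blue.

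For 3 genes the groups did not overlap, with every knockdown library on one side of every control: KDM4A and SETD8 were higher and JARID2 lower. That is 3 of 43, or 6.98%, beside 6.24% of all tested genes (3.14% higher and 3.1% lower), so the share is near the background. It was also 3 without the library labelled scrambled control 2 (10.1% of all genes), where KDM4A, SETD8 and JARID2 remained. Leaving out knockdown 1, 2 or 3 gave 5, 6 and 9 such genes, beside 9.92%, 13.7% and 21.3% of all genes, leaving out control 1 gave 4, beside 13.5%, and leaving out control 3 gave 15, beside 26.7%. With total-count scaling DOT1L took the place of JARID2 among the 3.

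**Figure D3:**
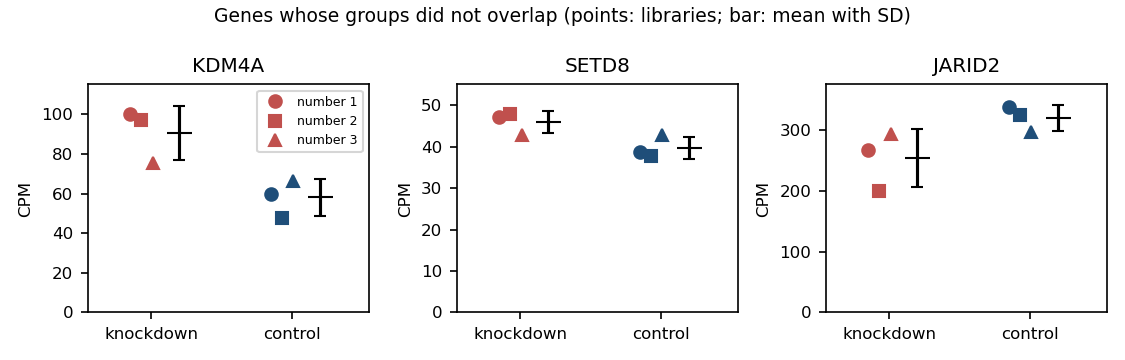
CPM of KDM4A, SETD8 and JARID2 in the 3 knockdown and 3 control libraries, with circles, squares and triangles for the libraries numbered 1, 2 and 3, and the group mean with its SD beside them. The triangles of the groups, knockdown 3 and control 3, lie close together for SETD8 and JARID2, at 42.8 and 42.7 CPM and at 293 and 297 CPM.

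Among the LSD demethylases, KDM1A, which removes methyl groups from lysine 4 of histone H3 in the CoREST complex, was at 109, 122 and 136 CPM in knockdown 1 to 3, against 130.0, 122 and 153 CPM in controls 1 to 3. The groups overlapped, and the log2 difference was −0.14 (SE 0.20, edgeR adjusted p = 0.926). Its relative KDM1B was at 83.2, 72.0 and 140.4 CPM in knockdown 1 to 3, against 104, 135 and 131 CPM in the controls. Knockdown 3 held the highest KDM1B value of all 6 libraries and knockdown 2 the lowest, and the log2 difference was −0.32 (SE 0.29, edgeR adjusted p = 0.926). It was −0.67 without knockdown 3 (edgeR unadjusted p = 0.0390 and adjusted p = 0.966), −0.14 without knockdown 2 and −0.07 with pairs 1 and 3 only. Without knockdown 3, 2 of the 43 genes and 438 of 13941 tested genes had an edgeR unadjusted p under 0.05.

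Of the 13 JmjC demethylases, 12 had a log2 difference below 0 and 1, KDM4A, above it, none passing the test, with a class median of −0.24 that was −0.08 without the library labelled scrambled control 2. KDM4A, which acts on trimethylated lysine 9 and lysine 36 of histone H3, was at 100.1, 97.1 and 75.2 CPM in knockdown 1 to 3, against 60.0, 47.8 and 66.4 CPM in controls 1 to 3. All 3 knockdown libraries lay above all 3 controls, and the knockdown library was the higher one in each same-numbered pair, by 0.74, 1.02 and 0.18 on the log2 scale. The means were 90.8 ± 13.6 CPM in knockdown and 58.1 ± 9.45 CPM in control libraries (SD, n = 3 each), a log2 difference of 0.64 (SE 0.23, edgeR unadjusted p = 0.0231 and adjusted p = 0.926). Leaving out each library in turn gave log2 differences of 0.53 to 0.76. KDM4A was no longer under the unadjusted threshold in edgeR when knockdown 1, knockdown 2 or control 1 was left out.

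The other members of that subfamily did not follow KDM4A. KDM4B was at 70.0, 84.3 and 52.5 CPM in knockdown 1 to 3, against 128, 227 and 42.6 CPM in the controls. The control values spanned a 5.33-fold range that enclosed the whole knockdown group, and the log2 difference was −0.94 (SE 0.54, edgeR adjusted p = 0.926) with all libraries and −0.30 without the library labelled scrambled control 2. KDM4C was at 23.3 to 33.3 CPM in knockdown and 26.5 to 39.4 CPM in control libraries, with a difference in log2 of −0.31 (SE 0.25).

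KDM3A, which removes mono- and dimethylation from lysine 9 of histone H3, had the largest difference of the 43 genes in absolute size. It was at 94.2, 110.4 and 73.3 CPM in knockdown 1 to 3, against 158, 402 and 63.3 CPM in controls 1, 2 and 3 as labelled. The lowest and the highest of the 6 values were both controls. The log2 difference was −1.17 (SE 0.59, 95% interval −2.55 to 0.22, edgeR adjusted p = 0.926), and −0.25 without the library labelled scrambled control 2. KDM3A and KDM4B put the 6 libraries in the same order, which from the top was the library labelled scrambled control 2, control 1, knockdown 2, knockdown 1, knockdown 3 and control 3. No other gene of the 43 had that order, and 1.43% of all tested genes did; the order was compared after the values were seen.

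As background, KDM3A and KDM4B are known hypoxia-inducible genes in human cells, bound by the hypoxia-inducible factor HIF1. Of 3 hypoxia-inducible genes looked at beside them, chosen with their values in these data known, ENO2 and ADM had the same library order. Because of that choice the match is not a test, and 196 of all tested genes (1.43%) had this order. ENO2 was at 1.57, 19.3 and 0.649 CPM in knockdown 1 to 3, against 46.9, 361 and 0.518 CPM in controls 1, 2 and 3 as labelled. ADM was at 8.15, 13.7 and 2.97 CPM in knockdown 1 to 3, against 25.1, 155 and 2.43 CPM in controls. VEGFA had a different order, at 812, 726 and 166 CPM in knockdown and 647, 998 and 160.1 CPM in control libraries. None of ENO2, ADM and VEGFA passed the test, and the part of low oxygen in the KDM3A and KDM4B values was not tested.

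The promoter windows of KDM3A and KDM4B are shown because these genes moved together across libraries, with KDM4A as the relative that did not. They are RefSeq windows of 300 bases on GRCh38.p14, from 250 bases before to 50 after a gene start, while the submitters name hg19. All 3 are on the plus strand: KDM3A at chr2:86441121-86441420, the first of its windows in the table, KDM4B at chr19:4968863-4969162 and KDM4A at chr1:43649899-43650198. Capitals mark matches on either strand to ACGTG or GCGTG, the core letters of a hypoxia response element.
KDM3A: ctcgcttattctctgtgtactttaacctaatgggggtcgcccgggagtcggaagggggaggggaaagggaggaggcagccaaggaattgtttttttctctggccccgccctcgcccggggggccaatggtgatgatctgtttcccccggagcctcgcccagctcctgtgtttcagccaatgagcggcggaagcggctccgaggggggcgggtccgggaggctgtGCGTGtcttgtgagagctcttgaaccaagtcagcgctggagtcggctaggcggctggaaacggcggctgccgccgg
KDM4B: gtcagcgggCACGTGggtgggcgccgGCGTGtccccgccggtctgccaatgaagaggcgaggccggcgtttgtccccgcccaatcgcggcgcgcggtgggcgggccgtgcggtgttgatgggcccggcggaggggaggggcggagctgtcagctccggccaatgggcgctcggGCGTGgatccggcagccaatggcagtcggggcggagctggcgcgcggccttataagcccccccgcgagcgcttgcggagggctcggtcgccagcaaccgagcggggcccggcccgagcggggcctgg
KDM4A: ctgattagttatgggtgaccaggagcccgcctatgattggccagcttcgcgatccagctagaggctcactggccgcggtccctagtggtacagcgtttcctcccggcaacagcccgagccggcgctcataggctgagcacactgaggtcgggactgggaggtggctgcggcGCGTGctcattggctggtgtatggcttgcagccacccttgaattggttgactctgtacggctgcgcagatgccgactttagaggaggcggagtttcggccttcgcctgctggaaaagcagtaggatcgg
KDM4B held 2 overlapping ACGTG matches, which together spell a palindrome, and 2 GCGTG matches. KDM3A and KDM4A each held 1 GCGTG match and no ACGTG match, so these letters did not separate KDM3A from KDM4A. ACGTG was found in 21.4% of 35116 RefSeq promoter windows and in 24.6% of the 61 windows of 39 of the 43 genes. GCGTG was found in 36.5% of all windows and 65.6% of those 61. These shares count windows, of which some genes have more than 1. They were not adjusted for base composition, and the difference between them was not tested. A match is a description of the sequence and not a binding site.

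PHF8, which acts on lysine 9 of histone H3 and lysine 20 of histone H4, was at 45.6, 45.0 and 60.5 CPM in knockdown 1 to 3, against 49.4, 127 and 63.9 CPM in controls 1, 2 and 3 as labelled. A single control stood out there too, and the log2 difference of −0.67 (SE 0.37, edgeR adjusted p = 0.926) was −0.17 without it. KDM5B and KDM5C, erasers of lysine 4 methylation, had log2 differences of −0.53 and −0.40, which were −0.13 and 0.00 without that library. KDM6B, an eraser of lysine 27 methylation, was at 76.9, 40.5 and 31.8 CPM in knockdown and 55.3, 92.5 and 25.6 CPM in control libraries. Its values spread 3.61-fold with no order by group (log2 difference −0.22, SE 0.51). The other 6, KDM2A, KDM2B, KDM3B, KDM5A, KDM6A and KDM4C, had log2 differences of −0.31 to −0.04. KDM5A, a lysine 4 eraser, was among the steadiest of the 43, between 127 and 145 CPM in all libraries.

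All 5 PRC2 genes had log2 differences below 0, none passing the test, with a median of −0.22 that was −0.14 without the library labelled scrambled control 2. PRC2 methylates lysine 27 of histone H3 through either EZH1 or EZH2, and these alternative catalytic subunits behaved differently across libraries. EZH1 was at 33.1, 40.8 and 27.1 CPM in knockdown 1 to 3, against 40.7, 152 and 28.6 CPM in controls 1, 2 and 3 as labelled. Of the 6 EZH1 values, 5 were within 27.1 to 40.8 CPM and the other was the outlying control. The log2 difference of −1.13 (SE 0.60, edgeR adjusted p = 0.926) was −0.04 without that library. EZH2 was at 47.1, 57.8 and 81.5 CPM in knockdown 1 to 3, against 67.9, 59.5 and 90.1 CPM in controls, and was not raised in the library labelled scrambled control 2. In each same-numbered pair EZH2 was lower in the knockdown, with differences of −0.53, −0.04 and −0.14 on the log2 scale, and the fitted log2 difference was −0.22 (SE 0.28, edgeR adjusted p = 0.926). Leaving out a library moved it between −0.03 without control 3 and −0.47 without knockdown 3, with −0.06 when knockdown 1 and −0.34 when the library labelled scrambled control 2 was dropped.

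JARID2, a PRC2 cofactor whose JmjC domain is not catalytic, was at 268, 201 and 293 CPM in knockdown 1 to 3, against 339, 325 and 297 CPM in the controls. The groups did not overlap, but the gap between them was 293 to 297 CPM, within the pair numbered 3. The log2 difference was −0.33 (SE 0.22, edgeR adjusted p = 0.926) and −0.32 without the library labelled scrambled control 2, but −0.19 without knockdown 2 and −0.18 with pairs 1 and 3 only. SUZ12, the scaffold of the complex, varied least of all 43 genes, from 148 to 161 CPM in knockdown and from 146 to 161 CPM in control libraries, with a difference in log2 of −0.02 (95% interval −0.43 to 0.40). A pseudogene resembles part of SUZ12 and could share its reads. EED, which binds trimethylated lysine 27, had a log2 difference of −0.02 (SE 0.27), and its highest values were 42.0 CPM in knockdown 3 and 43.6 CPM in control 3.

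**Figure D4:**
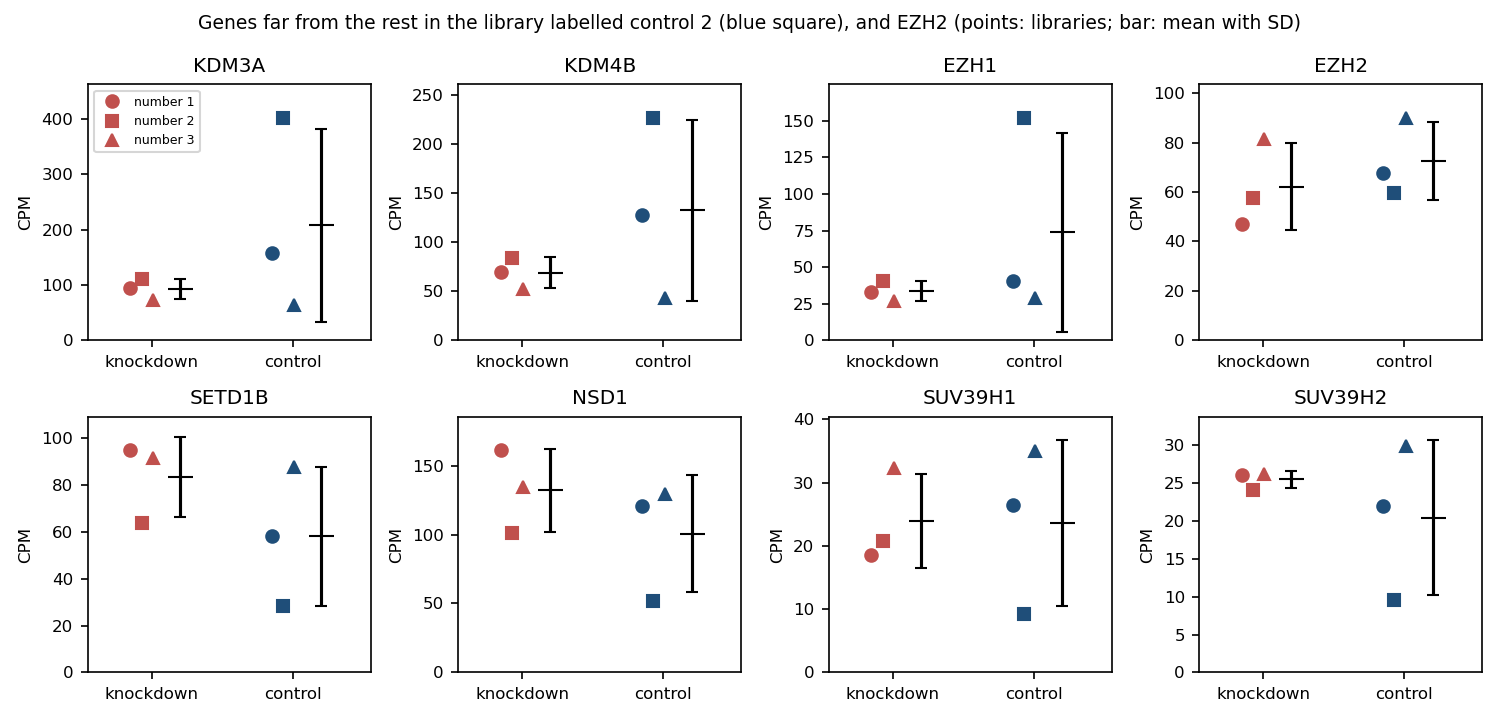
CPM of KDM3A, KDM4B, EZH1, EZH2, SETD1B, NSD1, SUV39H1 and SUV39H2 by group, with circles, squares and triangles for the libraries numbered 1, 2 and 3, and the group mean with its SD beside them. The blue square, the library labelled scrambled control 2, is the top point for KDM3A, KDM4B and EZH1 and the bottom point for SETD1B, NSD1, SUV39H1 and SUV39H2.

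The 6 genes of the SET1/MLL complexes, which methylate lysine 4 of histone H3, all had log2 differences above 0 and none passed the test. Their median was 0.12, and −0.03 without the library labelled scrambled control 2, where 2 of the 6 were above 0. The 5 MLL family genes, which are not among the 6, all had log2 differences below 0. SETD1B, a catalytic subunit, was at 94.98, 63.9 and 91.6 CPM in knockdown 1 to 3, against 58.4, 28.3 and 87.7 CPM in controls 1, 2 and 3 as labelled. It was the higher one in the knockdown of each pair, by 1.17 in pair 2 and by 0.06 in pair 3, and the fitted log2 difference was 0.52 (SE 0.40, edgeR adjusted p = 0.926; 0.20 without the library labelled scrambled control 2). With the replicate number as a block, 2 of the 43 genes and 436 of 13668 tested genes had an edgeR unadjusted p under 0.05. SETD1B was among them, with an edgeR unadjusted p of 0.0486 and adjusted p of 0.709. Its paralogue SETD1A was at 55.5, 47.2 and 60.2 CPM in knockdown and 48.6, 32.7 and 61.3 CPM in control libraries, with a difference in log2 of 0.19 (SE 0.27).

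WDR5, a core subunit that docks the catalytic subunits, was at 104, 92.6 and 104 CPM in knockdown 1 to 3, against 91.1, 74.4 and 109 CPM in controls 1 to 3. Without the lowest of these, the library labelled scrambled control 2, its log2 difference of 0.13 (SE 0.22) was 0.00. The core subunits ASH2L and RBBP5 had log2 differences of 0.12 and 0.02. MEN1, which encodes menin, was at 42.3 to 60.7 CPM in knockdown and 27.9 to 63.7 CPM in control libraries, with a difference in log2 of 0.10 (SE 0.33).

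Among the 6 H3K9 methyltransferases, 2 had log2 differences above 0 and 4 below, with a median of −0.05 and none passing the test. The sign of that median was not stable: it was 0.06 without knockdown 2, 0.04 with pairs 1 and 3 only, −0.12 when knockdown 1 and −0.00 when the library labelled scrambled control 2 was dropped. SUV39H1 and SUV39H2, paralogues that trimethylate lysine 9 in constitutive heterochromatin, were both lowest in the library labelled scrambled control 2. SUV39H1 was at 18.5, 20.8 and 32.3 CPM in knockdown 1 to 3, against 26.5, 9.27 and 35.1 CPM in controls. SUV39H2 was at 26.1, 24.1 and 26.2 CPM in knockdown 1 to 3, against 22.0, 9.53 and 29.8 CPM in controls. The log2 differences were 0.02 (SE 0.48) and 0.32 (SE 0.39), and without that library they were −0.36 and −0.02. EHMT2, which encodes the dimethylating enzyme G9a, was at 133, 143 and 158 CPM in knockdown 1 to 3, against 135, 218 and 151 CPM in controls 1 to 3, a log2 difference of −0.22 (SE 0.24). EHMT1, its partner GLP, lay between 49.3 and 63.4 CPM in all libraries. SETDB2 was at 93.1, 54.5 and 63.7 CPM in knockdown and 65.5, 108 and 61.0 CPM in control libraries, and its log2 difference of −0.15 was 0.16 without the library labelled scrambled control 2. SETDB1, which silences retroelements with KAP1, had a log2 difference of −0.08 (SE 0.20).

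Of the 6 H3K36 and H3K79 methyltransferases, 5 had log2 differences below 0 and 1 above, with a median of −0.17 that was −0.00 without the library labelled scrambled control 2. DOT1L, the methyltransferase of lysine 79, was at 227, 185 and 222 CPM in knockdown 1 to 3, against 231, 399.8 and 226 CPM in controls 1, 2 and 3 as labelled. Control 1, control 3, knockdown 1 and knockdown 3 lay within 222 to 231 CPM. The log2 difference of −0.44 (SE 0.28, edgeR adjusted p = 0.926) was −0.11 without the library labelled scrambled control 2. NSD1, which dimethylates lysine 36, ran the other way, at 161, 101 and 134 CPM in knockdown 1 to 3, against 120.3, 52.1 and 129.6 CPM in controls 1, 2 and 3 as labelled. Its log2 difference of 0.39 (SE 0.37) was 0.08 without that library. Its paralogue WHSC1L1 was at 109, 153 and 123 CPM in knockdown and 129, 233 and 128 CPM in control libraries. The paralogues were thus at opposite ends of the range in the library labelled scrambled control 2, and the log2 difference of WHSC1L1 was −0.35 (SE 0.30). WHSC1 and ASH1L had log2 differences of −0.09 and −0.25. SETD2, the trimethylating enzyme of lysine 36, was at 102 to 129 CPM in knockdown and 114 to 128 CPM in control libraries, with a difference in log2 of −0.04 (SE 0.19).

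The 5 other lysine methyltransferases had 3 log2 differences above 0 and 2 below, with the class median at 0.21 (−0.03 without the library labelled scrambled control 2). SETD7, which monomethylates lysine 4 of histone H3 and several non-histone proteins, was at 199, 152 and 127 CPM in knockdown 1 to 3, against 124, 73.9 and 127 CPM in controls 1, 2 and 3 as labelled. Knockdown 3 and control 3 were alike while the other pairs differed by 0.69 and 1.04 on the log2 scale, and the fitted log2 difference was 0.56 (SE 0.29, edgeR adjusted p = 0.926; 0.35 without the library labelled scrambled control 2). SETD8, which monomethylates lysine 20 of histone H4, was at 47.2, 47.8 and 42.8 CPM in knockdown 1 to 3, against 38.6, 37.6 and 42.7 CPM in controls. These groups did not overlap, yet knockdown 3 and control 3 were almost equal, and the log2 difference was 0.21 (SE 0.19, edgeR adjusted p = 0.926). SMYD5 was at 37.3, 28.4 and 46.1 CPM in knockdown and 31.3, 14.7 and 47.9 CPM in control libraries, with a difference in log2 of 0.25 (SE 0.42). SMYD2 had a log2 difference of −0.03 (SE 0.41) over values of 23.0 to 64.2 CPM, and SMYD3 one of −0.01 (SE 0.18) over values of 105 to 122 CPM.

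Differences within same-numbered pairs were small in the pair numbered 3 and wide in the pair numbered 2. The labels do not say that libraries with the same number belong together. PRMT5 itself differed by −0.36, 0.43 and −1.58 on the log2 scale in pairs 1, 2 and 3. Its level was thus higher in the knockdown library of pair 2, and its largest drop was in pair 3. The median absolute log2 difference of the 43 genes stood at 0.23 (pair 1), 0.60 (pair 2) and 0.07 (pair 3), beside 0.29, 0.60 and 0.10 over all tested genes. In pair 2 the JmjC demethylases had a median of −0.76 and the SET1/MLL genes one of 0.53. In pair 3 these medians were 0.08 and −0.07, each with the opposite sign. The knockdown library was higher in all 3 pairs for 4 of the 43 genes and lower in all 3 for 8, beside 14.7% and 14.1% of all tested genes.

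**Figure D5:**
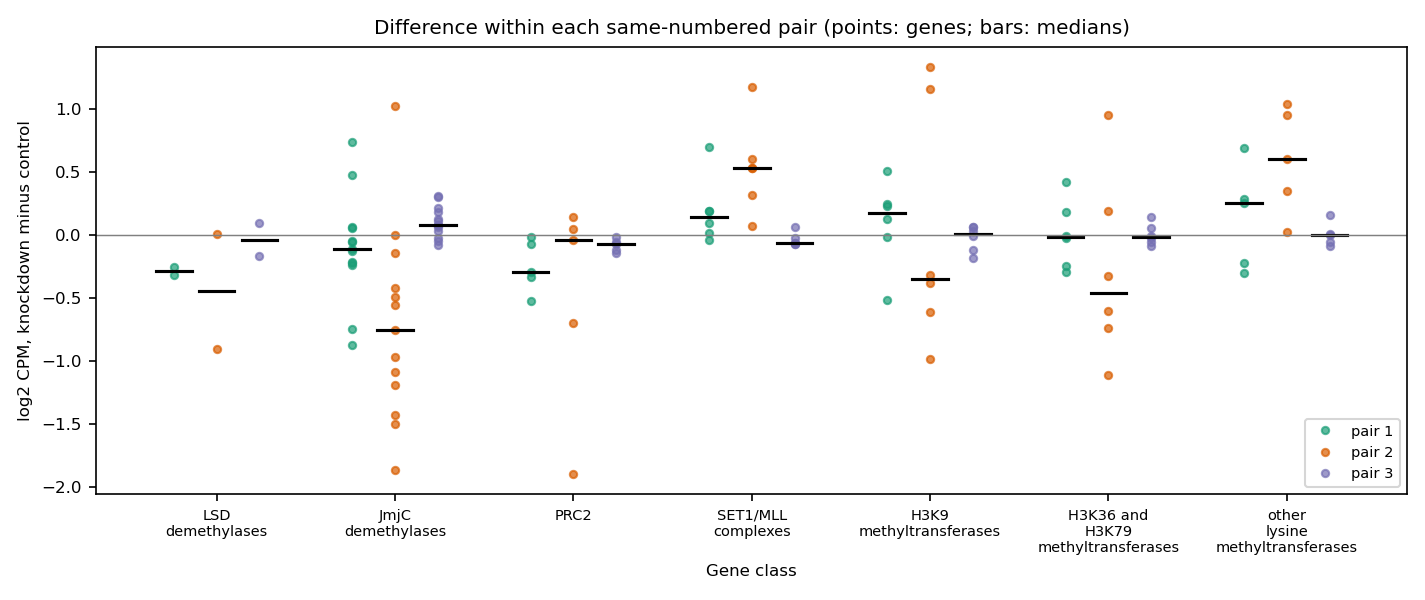
Log2 CPM of the knockdown library minus that of the control library with the same number, for each gene (points) and as the class median (bars), in pairs 1, 2 and 3 of each class. The points of pair 3 lie between −0.19 and 0.31, while those of pair 2 run from −1.90 to 1.33.

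Levels of different genes were compared only after division by the length of the longest coding transcript in GENCODE v29, matched for all 43 genes, which need not be the annotation the submitters counted with. SMYD3 was highest, at 73.0 CPM per kilobase in knockdown and 73.7 CPM per kilobase in control libraries, followed by JARID2 at 44.2 and 55.6 and KDM1A at 40.0 and 44.1. The lowest were KDM5B at 3.26 CPM per kilobase in knockdown and 4.71 in control libraries, KDM6A at 4.59 and 4.93, and KDM4C at 5.89 and 7.32. Within PRC2 the mean level of EZH2 over the 6 libraries, 25.5 CPM per kilobase, was above that of EZH1, 11.6 CPM per kilobase; the order was reversed in the library labelled scrambled control 2.

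A further 70 genes of the same pathway were taken from a list of MLL enzymes and their partners, PRC2 accessory subunits, further writers and erasers, PRC1, methyl-lysine readers and CoREST partners. KDM4D, HR and PRDM9 had too few counts, and MPP8 and GSE1 matched no row. Of the 70, 65 could be tested and 0 passed in either direction in edgeR, where 24 had a log2 difference above 0 and 41 below, with a median of −0.12, which was −0.02 without the library labelled scrambled control 2. The 6 tested demethylases of this list had 4 log2 differences above 0 and 2 below. Their median was 0.37, and 0.06 without that library. The 5 MLL family genes had log2 differences of −0.39 to −0.05 and each had their top value in the library labelled scrambled control 2, and with it left out MLL2 and MLL3 turned to 0.19 and 0.12; the MLL row can also hold reads of the fusion transcript. PHF1, a PRC2 accessory subunit, was at 34.7, 39.0 and 36.9 CPM in knockdown 1 to 3, against 46.9, 359 and 38.6 CPM in controls 1, 2 and 3 as labelled. Its log2 difference was −2.01 (SE 0.82, edgeR unadjusted p = 0.0431 and adjusted p = 0.926), and −0.21 without the library labelled scrambled control 2. PHF1 was the only one of the 65 at an unadjusted p under 0.05, beside 1.77% of all tested genes. Groups did not overlap for 5 of the 65 genes, all lower in the knockdown: MTF2, SETD4, BMI1, PCGF1 and CBX5. Over all tested genes 3.1% were lower without overlap, and 6.24% had no overlap in either direction. The direction was not fixed before the values were seen.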

How the data were processed

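Poly(A) RNA-seq libraries came from TriZol-extracted RNA of MV4-11 cells, per the labels' protocols. Each library has its own deposited table of estimated counts per gene, without depth scaling. CASAVA 1.9, TopHat2 version 2, edgeR and hg19 are named in the submitters' processing notes, without saying what each was used for. How reads were counted, on which annotation and whether by strand is not given in the sources used here, so antisense, overlapping and near-identical genes can share reads. From the values, 40.3% to 42.3% of entries were whole (tolerance 1e-06), and values were rounded before any count model.

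Genes kept by filterByExpr (minimum count 10) went into edgeR 4.0.16 (R version 4.3.3) with TMM scaling, estimateDisp and glmQLFit, then a two-sided glmQLFTest of group with no other term, Benjamini-Hochberg over all tested genes, threshold 0.05. SEs were calculated as the absolute log2 difference divided by the square root of that test's F statistic, and 95% intervals from these SEs with a t quantile. Log2 CPM used a prior count of 2. Adjusted p-values are edgeR's unless another tool is named. Each library holds 16408484 to 19077106 counts, which are reads without molecular identifiers and not independent molecules. Nothing says the replicates were separate cultures, so p-values measure only the spread between these libraries, which may be technical. With 3 libraries a side, the smallest exact permutation p is 0.1, so none was run. The script was tested on simulated data.

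The labels give both groups the numbers 1 to 3. Deviations from the group means correlated across genes at 0.127, 0.394 and 0.566 for libraries with the same number, each above 0.1, so these are called pairs; the pairing comes from the values, not the labels. Knockdown 2 and control 1, with unlike numbers, had 0.164, above the 0.127 of the libraries numbered 1. In log2 CPM, too, knockdown 2 was closer to control 1 (0.976) than to the library labelled scrambled control 2 (0.909). The pairing is therefore uncertain, and differences within pairs are descriptions only. The replicate block was an alternative, as were total-count, upper quartile and RLE scaling, no count filter, at least 1 CPM in 3 libraries, DESeq2 1.42.0, limma-voom (limma 3.58.1), and leaving out libraries. The members, the classes and the lists were chosen with earlier results of these data known. Genes given by library were those without overlap between groups, the 3 smallest p-values per class and the 5 with the largest distance of a library from the median of the others; KDM6B, and the genes of other lists, were added after values were seen.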

Additional observations from a re-analysis of the deposited data

How the results depend on the processing

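No gene of the 43 passed the threshold under any alternative, and neither did any gene over the whole table. The smallest edgeR adjusted p over the alternatives was 0.524, without control 3. There 6 of the 43 genes had an edgeR unadjusted p under 0.05, beside 1307 of 13936 tested genes. The log2 differences of KDM3A and KDM4B were −1.59 and −1.36 in that setting. With the replicate block 0 of 43 were called (smallest adjusted p = 0.709) and their median log2 difference was −0.07, against −0.08 with no block; the block changed no call. Leaving out a library in turn gave medians of −0.21 to −0.00043 over the 43 genes, −0.46 to −0.081 for the JmjC demethylases, −0.45 to −0.033 for PRC2 and −0.23 to −0.0041 for the H3K36 and H3K79 methyltransferases, which had 0.016 with pairs 1 and 3 only. The number of genes without overlap was 3 to 15 when a library was left out. The H3K9 median ran from −0.12 to 0.062, and the SET1/MLL and other lysine methyltransferase medians from −0.026 to 0.37 and from −0.032 to 0.27. Of the 43 genes, 23 turned in sign when some library was left out. Among the 22 genes of the naming rule these were SETD1A (−0.015 to 0.42), SETDB2 (−0.41 to 0.16), SUV39H1 (−0.36 to 0.42), SUV39H2 (−0.022 to 0.69), EHMT2 (−0.35 to 0.022), WHSC1L1 (−0.49 to 0.0023) and SMYD5 (−0.086 to 0.70). With pairs 1 and 3 only they turned for SETDB2 (0.31), SUV39H1 (−0.28) and EHMT2 (0.025). Other scalings, filters and tools turned no sign among the 22 genes that the naming rule gives. The cause of these shifts was not tested.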
